A study of Mus musculus with 12 samples.

Results

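The 9 genes described here act in the making of red blood cells: Car1, Car2, Klf1, Epor, Slc4a1, Alas2, Hemgn, Ahsp and Hbb-bt. They were taken as the probe sets annotated to these symbols in the deposited table of log2 array intensities. Of the 9, 7 were measured, with 1 probe set each, among 19494 named genes. Ahsp, which encodes the chaperone of free alpha globin, and the adult beta globin gene Hbb-bt had no annotated probe set in the tables used and were not analysed here.

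The arrays compared NFAT5-deficient with wild-type blood progenitors regenerated in transplanted mice. NFAT5 is a transcription factor that answers to hypertonic stress. The 4 groups of 3 arrays each were NFAT5-deficient hematopoietic stem cells (HSC), wild-type HSC, NFAT5-deficient multipotent progenitors (MPP) and wild-type MPP. NFAT5-deficient donors were Nfat5 fl/fl Vav-Cre and wild-type donors were Nfat5 +/+ Vav-Cre, so both genotypes carried the Cre transgene, whose Vav promoter is active across blood cells. Donor marrow was of the CD45.2 type, and the irradiated recipients were wild-type mice of the CD45.1 type. The donor cells were sorted 13 weeks after transplantation. HSC were CD48-negative and CD150-positive and MPP were CD48-positive and CD150-negative, both within the LSK compartment (lineage-negative cells with Sca-1 and Kit). From each sample 300 pg of total RNA was amplified. Ages, and whether each array stands for a separate recipient, are not stated in the labels, so p-values measure the spread between these samples, which may be technical.

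In red cell formation, erythropoietin acts through its receptor on committed progenitors, and transcription factors including KLF1 switch on the genes of haemoglobin synthesis and of the red cell membrane. Carbonic anhydrases, which interconvert carbon dioxide and bicarbonate, work with the anion exchanger of that membrane in carbon dioxide transport. HSC and MPP lie upstream of committed erythroid cells, and most red cell proteins are made later than either stage.

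Between arrays of the same group, values correlated across genes at 0.898 to 0.952. Wild-type HSC array 66 and NFAT5-deficient HSC array 70 stood farthest apart on the second principal component, at opposite ends. Nfat5 read 7.62 to 8.76 in NFAT5-deficient HSC, against 9.27 to 9.81 in wild-type HSC. In MPP it read 7.63 to 8.40 in the NFAT5-deficient group, against 8.12 to 8.85 in the wild-type group. The position of its probe set relative to the deletion is not known here. Slamf1, which encodes CD150, was higher in HSC than in MPP by 3.60 on the log2 scale and Cd48 was lower by a log2 difference of -3.61, both called in limma with Benjamini-Hochberg adjustment (adjusted p 0.000155 and 0.00417). As a guide to dim probe sets, 17 genes of other tissues had median log2 intensities between 3.98 and 7.71. The range of the genes of other tissues below means that of these medians, although their single array values reached 7.965. A level depends on the probes, so levels of different genes are not ranked against each other below.

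Of the 7 measured genes, 2 differed between HSC and MPP over both genotypes, and they did so in opposite directions. Car1, which encodes the cytosolic carbonic anhydrase 1, was lower in HSC than in MPP, by a log2 difference of -2.35 whose size is not resolved, since its HSC arrays lay within the range of the genes of other tissues. Car2, which encodes the cytosolic carbonic anhydrase 2, was 1.54-fold higher in HSC, but its call was lost in 12 of 22 other settings. No HSC array overlapped an MPP array for either gene. The master regulator Klf1, the receptor gene Epor, the anion exchanger gene Slc4a1, the haem synthesis gene Alas2 and the nuclear protein gene Hemgn did not pass the test. In neither population did any of the 7 genes pass the test between genotypes. In these bulk samples, fewer cells of a type and less RNA per cell cannot be told apart.

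**Figure D1:**
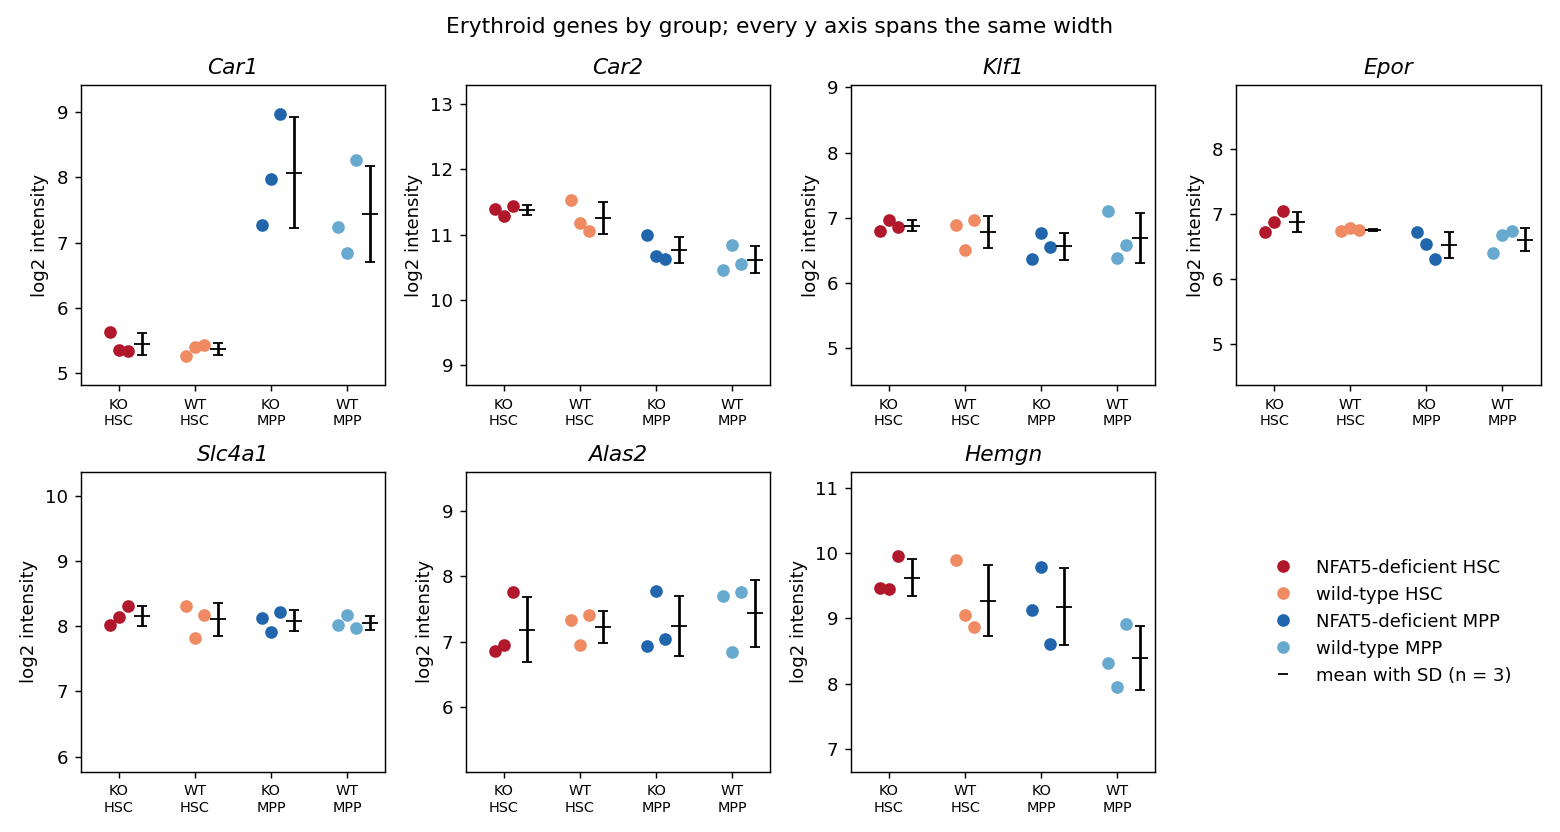
Log2 intensity of the 7 measured erythroid genes on each of the 12 arrays, with 1 panel per gene; points are arrays, and dashes with bars are group means with SD (n = 3). KO stands for NFAT5-deficient and WT for wild-type. Car1 sits between 5.26 and 5.63 on the HSC arrays and between 6.83 and 8.97 on the MPP arrays, and Car2 lies higher on every HSC array than on any MPP array.

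Car1 read 5.63, 5.36 and 5.34 in NFAT5-deficient HSC and 5.26, 5.41 and 5.43 in wild-type HSC. It read 7.28, 7.97 and 8.97 in NFAT5-deficient MPP and 7.23, 6.83 and 8.26 in wild-type MPP. All 6 HSC arrays were low and close together, and the 6 MPP arrays were higher and spread widely, with NFAT5-deficient MPP array 76 the highest. The mean was 5.40 ± 0.13 in HSC and 7.76 ± 0.79 in MPP (SD, n = 6 each). In the mean of genotypes the difference between HSC and MPP was -2.35 on the log2 scale (SE 0.30, 95% confidence interval -3.01 to -1.70, limma adjusted p 0.0046). The HSC values of Car1 lay within the range of the genes of other tissues, and only 3 of its 12 arrays exceeded 7.71, so the size of the difference is not resolved at the dim end.

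Within the genotypes, the Car1 difference was -2.63 in NFAT5-deficient cells (SE 0.42, limma adjusted p 0.0474). It was -2.08 in wild-type cells (SE 0.42, 95% confidence interval -3.00 to -1.15, limma adjusted p 0.117). The call in NFAT5-deficient cells was close to the threshold and was lost in 17 of 23 other settings, including 11 of the 12 that left out 1 array each. Only without wild-type MPP array 75 did it hold (adjusted p 0.0312). Whether the 2 genotypes differed was tested by the interaction, which gave -0.55 (95% confidence interval -1.86 to 0.76, limma adjusted p 0.999).

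Car2 read 11.40, 11.29 and 11.45 in NFAT5-deficient HSC and 11.53, 11.18 and 11.05 in wild-type HSC. It read 10.99, 10.67 and 10.63 in NFAT5-deficient MPP and 10.46, 10.85 and 10.54 in wild-type MPP. Every array was far above the range of the genes of other tissues, and the lowest HSC array, wild-type 75, stood just above the highest MPP array, NFAT5-deficient 64. The mean was 11.32 ± 0.18 in HSC and 10.69 ± 0.20 in MPP (SD, n = 6 each), a difference of 0.63 (SE 0.11, 95% confidence interval 0.38 to 0.88, limma adjusted p 0.0401). The difference was 0.62 in NFAT5-deficient cells and 0.64 in wild-type cells, neither past the test alone (limma adjusted p 0.290 and 0.248). The call over both genotypes was lost in 12 of 22 other settings. Leaving out 1 array ended it in 9 of 12 cases, with adjusted p between 0.0388 and 0.108 over the 12, and it held only without wild-type HSC 75, NFAT5-deficient MPP 64 or wild-type MPP 67. With the arrays centred on their medians the adjusted p was 0.0741, and without both HSC arrays that stood apart it was 0.104. With the array number as a block it was 0.168. Car1 passed the test over both genotypes in all 22 of these settings, with differences of -2.55 to -2.13.

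Car1 and Car2 are neighbours in the mouse genome. In the order of protein-coding genes of the RefSeq annotation of GRCm38.p6, Car13, Car1, Car3 and Car2 follow one another. The other pair of this cluster did not pass the test between populations. Car13 averaged 7.61 in HSC and 7.26 in MPP (difference 0.34, limma adjusted p 0.771). Car3 averaged 4.88 in HSC and 4.87 in MPP (difference 0.01, limma adjusted p 0.987), within the range of the genes of other tissues.

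**Figure D2:**
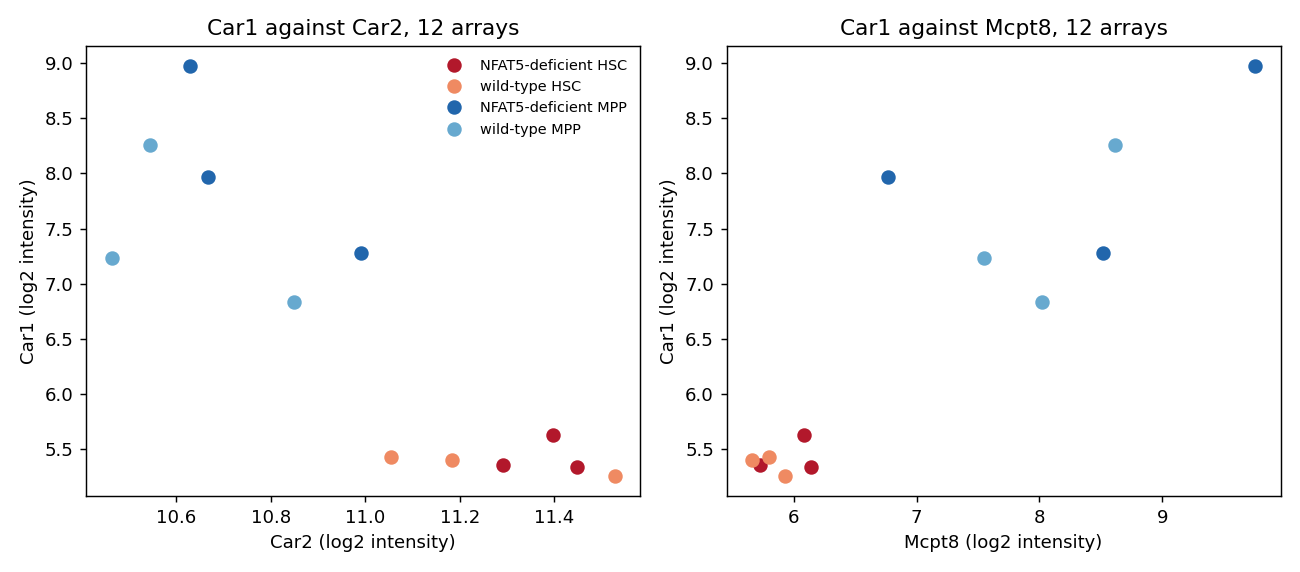
Log2 intensity of Car1 on the 12 arrays, set against Car2 and against the basophil protease gene Mcpt8; each point is 1 array, coloured by group. The HSC arrays and the MPP arrays form separate clouds in both panels. NFAT5-deficient MPP array 76 has the highest value of both Car1 (8.97) and Mcpt8 (9.76). Array 70 of that group has Car1 at 7.97 and the lowest Mcpt8 of the MPP arrays (6.77).

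Among the regulators, Klf1, which encodes the zinc finger activator of beta globin and other red cell genes, read 6.80, 6.97 and 6.86 in NFAT5-deficient HSC and 6.89, 6.51 and 6.96 in wild-type HSC. It read 6.36, 6.77 and 6.56 in NFAT5-deficient MPP and 7.11, 6.38 and 6.58 in wild-type MPP. The HSC minus MPP difference of 0.20 (95% confidence interval -0.13 to 0.54, limma adjusted p 0.602) did not pass the test, and wild-type MPP array 66 was the highest of all 12. No Klf1 array exceeded 7.71, the highest median among the genes of other tissues, so its level was not set apart from their range.

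Hemgn, which encodes hemogen, a nuclear protein of blood progenitors and erythroid cells, read 9.47, 9.44 and 9.96 in NFAT5-deficient HSC and 9.90, 9.05 and 8.87 in wild-type HSC. It read 9.13, 9.79 and 8.61 in NFAT5-deficient MPP and 8.32, 7.94 and 8.92 in wild-type MPP. Neither populations nor genotypes separated, although wild-type MPP had the lowest mean of the 4 groups (8.39 ± 0.49, SD, n = 3). The HSC minus MPP difference was 0.66 (95% confidence interval 0.06 to 1.27, limma adjusted p 0.374), the largest positive difference among the 7 genes, with a spread between arrays of one group (SD 0.49) well above that of Car2 (SD 0.19).

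Epor, the gene of the erythropoietin receptor, read 6.72, 6.87 and 7.04 in NFAT5-deficient HSC and 6.74, 6.78 and 6.75 in wild-type HSC. It read 6.72, 6.53 and 6.31 in NFAT5-deficient MPP and 6.41, 6.67 and 6.74 in wild-type MPP. Within each genotype the HSC arrays lay above the MPP arrays, by a margin smaller than the rounding of these values. Over both genotypes the difference was 0.25 (95% confidence interval 0.00452 to 0.50, limma adjusted p 0.404) and did not pass the test. As for Klf1, no array exceeded 7.71.

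Alas2, which encodes the erythroid form of the first enzyme of haem synthesis, read 6.86, 6.94 and 7.76 in NFAT5-deficient HSC and 7.33, 6.94 and 7.41 in wild-type HSC. It read 6.93, 7.77 and 7.03 in NFAT5-deficient MPP and 7.70, 6.84 and 7.76 in wild-type MPP. Each group spanned much of the same range, and the difference of -0.13 between HSC and MPP (95% confidence interval -0.67 to 0.41, limma adjusted p 0.849) was smaller than the spread within groups (SD 0.44). Only 3 of its 12 arrays exceeded 7.71, so most of its values also lay within the range of the genes of other tissues. None exceeded 7.965, the highest single array value of those genes.

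Slc4a1, which encodes band 3, the anion exchanger of the red cell membrane, read 8.02, 8.14 and 8.31 in NFAT5-deficient HSC and 8.32, 7.82 and 8.18 in wild-type HSC. It read 8.13, 7.91 and 8.21 in NFAT5-deficient MPP and 8.02, 8.17 and 7.97 in wild-type MPP. All arrays exceeded 7.71, but those at 7.82 and 7.91 lay under 7.965, the highest single array value of the genes of other tissues. Its 4 group means lay within 0.10 of each other, the narrowest range among the 7 genes, and the difference between HSC and MPP was 0.06 (95% confidence interval -0.27 to 0.39, limma adjusted p 0.893).

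In the order of the group means, Car1 was highest in NFAT5-deficient MPP, then wild-type MPP, NFAT5-deficient HSC and wild-type HSC. Only the step between wild-type MPP and NFAT5-deficient HSC had arrays that did not overlap. Car2 ran from NFAT5-deficient HSC through wild-type HSC and NFAT5-deficient MPP to wild-type MPP, with the 1 step without overlap between wild-type HSC and NFAT5-deficient MPP. Epor was highest in NFAT5-deficient HSC, followed by wild-type HSC, wild-type MPP and NFAT5-deficient MPP, and only wild-type HSC and wild-type MPP did not overlap. Neighbouring groups overlapped at every step for Klf1, Slc4a1, Alas2 and Hemgn.

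**Figure D3:**
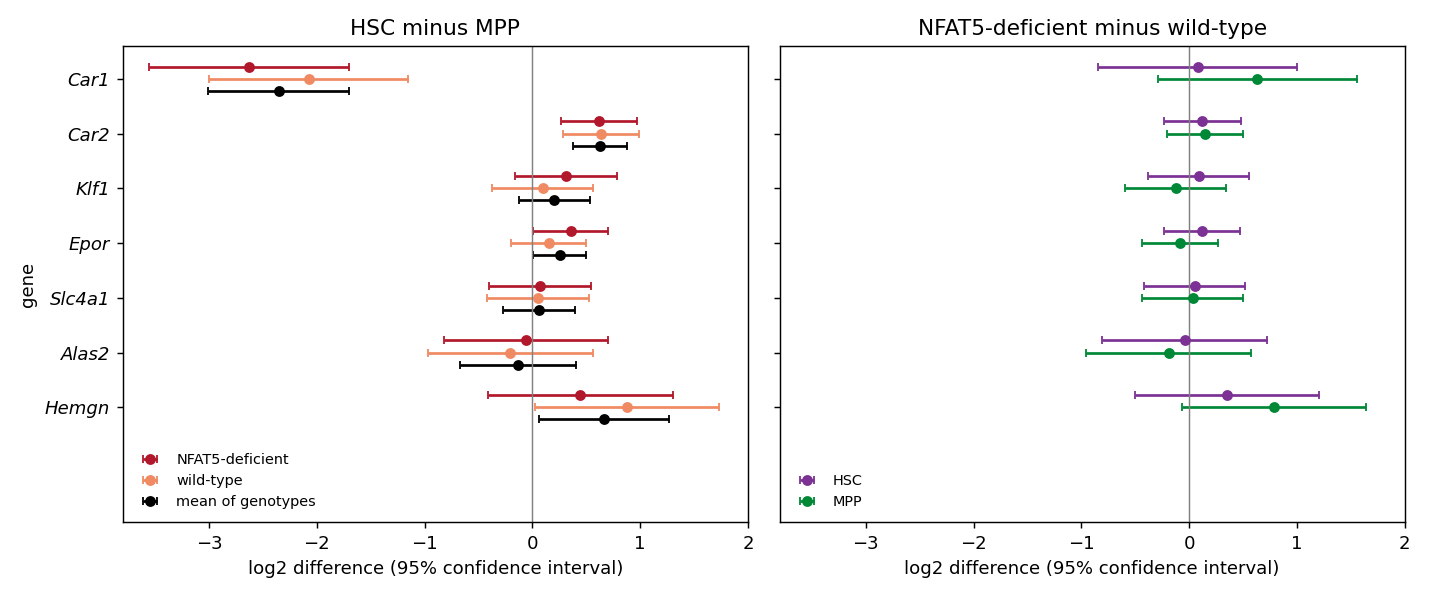
Log2 differences of the 7 measured erythroid genes, with HSC minus MPP in one panel and NFAT5-deficient minus wild-type in the other; points are limma estimates and lines are 95% confidence intervals. Car1 lies far below 0 in every HSC minus MPP comparison, and every genotype interval crosses 0.

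Counted over the mean of genotypes, 2 of the 7 genes were called between HSC and MPP, 1 higher and 1 lower, against 0.61% of all 19494 genes (119 genes) at a limma adjusted p under 0.05. The arrays of the same pair of genes did not overlap, against 1.33% of all genes. In NFAT5-deficient cells 1 of 7 was called, against 0.21% of all genes, and 4 of 7 did not overlap (Car2, Klf1 and Epor higher in HSC, Car1 lower), against 16.9% of all genes. For Klf1 and Epor the gap was narrow. Their lowest NFAT5-deficient HSC arrays read 6.80 and 6.724, and their highest NFAT5-deficient MPP arrays 6.77 and 6.718. In wild-type cells 0 of 7 were called in limma, with 3 at an unadjusted p under 0.05, against 0.164% of all genes called and 1734 of 19494 genes at an unadjusted p under 0.05. There 3 of 7 did not overlap (Car2 and Epor higher in HSC, Car1 lower), against 12.3%. The median difference of the 7 genes was 0.20 in the mean of genotypes, and that of all genes was 0.06. The within-genotype comparisons and their mean use the same arrays and are not separate evidence. The genes were chosen with earlier results of these data known, so the counts and shares do not test them as a set.

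Between genotypes, none of the 7 genes was called in HSC or in MPP. In HSC, the largest difference between NFAT5-deficient and wild-type cells was that of Hemgn, 9.62 ± 0.29 and 9.27 ± 0.55 (SD, n = 3 each; difference 0.35), and the other 6 lay between -0.04 for Alas2 and 0.12 for Car2 and Epor. In HSC 6 genes had a higher and 1 a lower mean in NFAT5-deficient cells, with a median difference of 0.09, and -0.05 over all genes. In limma 0 of 7 were called there and 0 had an unadjusted p under 0.05, with adjusted p between 0.923 and 0.994. Of all genes 0% were called, with 1205 at an unadjusted p under 0.05. No gene of the 7 had groups that did not overlap, against 10.2% of all genes.

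In MPP, Hemgn again had the largest genotype difference, with means of 9.18 ± 0.59 in NFAT5-deficient MPP and 8.39 ± 0.49 in wild-type MPP (SD, n = 3 each). The difference of 0.79 had a 95% confidence interval of -0.07 to 1.64 (limma adjusted p 0.896). Car1 averaged 8.07 ± 0.85 in NFAT5-deficient MPP and 7.44 ± 0.74 in wild-type MPP (SD, n = 3 each), a difference of 0.63 with a 95% confidence interval of -0.29 to 1.56 (limma adjusted p 0.899). Of the other 5, Car2 had a difference of 0.14, Slc4a1 0.03, Epor -0.08, Klf1 -0.13 and Alas2 -0.19. The median of the 7 was 0.03, and -0.07 over all genes. In limma 0 of 7 were called in MPP and 0 had an unadjusted p under 0.05, while 0.00513% of all genes (1 gene) were called and 1043 had an unadjusted p under 0.05. No gene of the 7 had groups that did not overlap, against 12.6% of all genes.

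The interaction, which is the genotype difference in HSC minus that in MPP, was called for 0 of 7 genes in limma, with 0 at an unadjusted p under 0.05. Over all genes 0% were called, with 817 at an unadjusted p under 0.05. Its values ran from -0.55 for Car1 to 0.21 for Klf1, all with an adjusted p of 0.999. The widths of these intervals are set by 3 arrays per group, and a p that misses the threshold does not show that the genotypes were alike.

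The other genes of the erythroid programme were read in 7 lists, described by counts, since the lists were chosen with earlier results of these data known. In none of the 7 lists was a gene called in limma in any of the 6 comparisons. The counts at an unadjusted p under 0.05 given below for each list compare with 2370 of all 19494 genes in the mean of genotypes. In the mean of genotypes, the erythroid transcription regulators had 20 measured genes, 14 with a higher and 6 with a lower mean in HSC, and 7 at an unadjusted p under 0.05. Their median difference was 0.08, beside 0.06 for all genes. Gata2, a factor of stem cells and early progenitors, averaged 7.92 in HSC and 7.08 in MPP (difference 0.84, limma adjusted p 0.204). Zfpm1, the gene of the GATA1 partner FOG1, averaged 7.28 in HSC and 6.55 in MPP (difference 0.73, limma adjusted p 0.167). Gata1, chosen after its values were seen because it encodes the main erythroid GATA factor, averaged 8.26 in HSC and 8.20 in MPP (difference 0.06, limma adjusted p 0.901).

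Partners and targets of the erythropoietin receptor had 13 of 14 genes measured, 11 with a higher and 2 with a lower mean in HSC, a median difference of 0.25, and 3 at an unadjusted p under 0.05. Bcl2l1, the gene of the survival protein BCL-XL, averaged 9.12 in HSC and 7.09 in MPP (difference 2.03, SE 0.49, limma adjusted p 0.125). Socs2, a feedback inhibitor of cytokine signalling, averaged 6.31 in HSC and 5.16 in MPP (difference 1.15, limma adjusted p 0.275). Of the haem synthesis and iron genes 20 of 22 were measured, 7 with a higher and 13 with a lower mean in HSC, with a median of -0.05 and 3 at an unadjusted p under 0.05. Tfrc, the transferrin receptor gene, averaged 8.40 in HSC and 9.50 in MPP (difference -1.10, limma adjusted p 0.152), and the ferritin heavy chain gene Fth1 differed by -0.08 (limma adjusted p 0.347).

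Of the globin genes 6 of 11 were measured, none of them an adult alpha or beta chain gene that fills mature red cells. All 6 had a higher mean in HSC, with a median difference of 0.14 and 0 at an unadjusted p under 0.05. Hba-x, the embryonic zeta chain gene, averaged 6.51 in HSC and 6.28 in MPP (difference 0.24, limma adjusted p 0.459). Hbq1b averaged 5.02 in HSC and 4.90 in MPP (difference 0.12, limma adjusted p 0.597). The mean over these 6 genes lay between 5.07 and 5.43 on every array, within the range of the genes of other tissues.

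Of the red cell membrane genes 21 of 24 were measured, 17 with a higher and 4 with a lower mean in HSC, with a median of 0.14 and 3 at an unadjusted p under 0.05. Mfsd2b, a sphingosine-1-phosphate transporter gene of red cells and platelets, averaged 7.07 in HSC and 6.32 in MPP with no overlap (difference 0.75, limma adjusted p 0.141). Tmod1, which encodes the actin-capping tropomodulin of the red cell skeleton, averaged 8.41 in HSC and 7.42 in MPP (difference 0.99, limma adjusted p 0.260). A list of 15 genes held red cell enzymes and other proteins, with Tal1 also in the regulator list. It had 12 higher and 3 lower means in HSC and a median of 0.11. At an unadjusted p under 0.05 there were 3, Tal1 among them. Nt5c3, a pyrimidine nucleotidase gene, averaged 8.78 in HSC and 6.91 in MPP (difference 1.87, SE 0.46, limma adjusted p 0.128), and Trim10 had a difference of 0.41 (limma adjusted p 0.388).

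The 14 other carbonic anhydrase genes had 10 higher and 4 lower means in HSC, a median of 0.02 and 0 at an unadjusted p under 0.05. The smallest p-values were those of Car10 (difference 0.18, limma adjusted p 0.495) and Car15 (difference -0.28, limma adjusted p 0.589). None of the 14 was called, while Car1 and Car2 were.

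**Figure D4:**
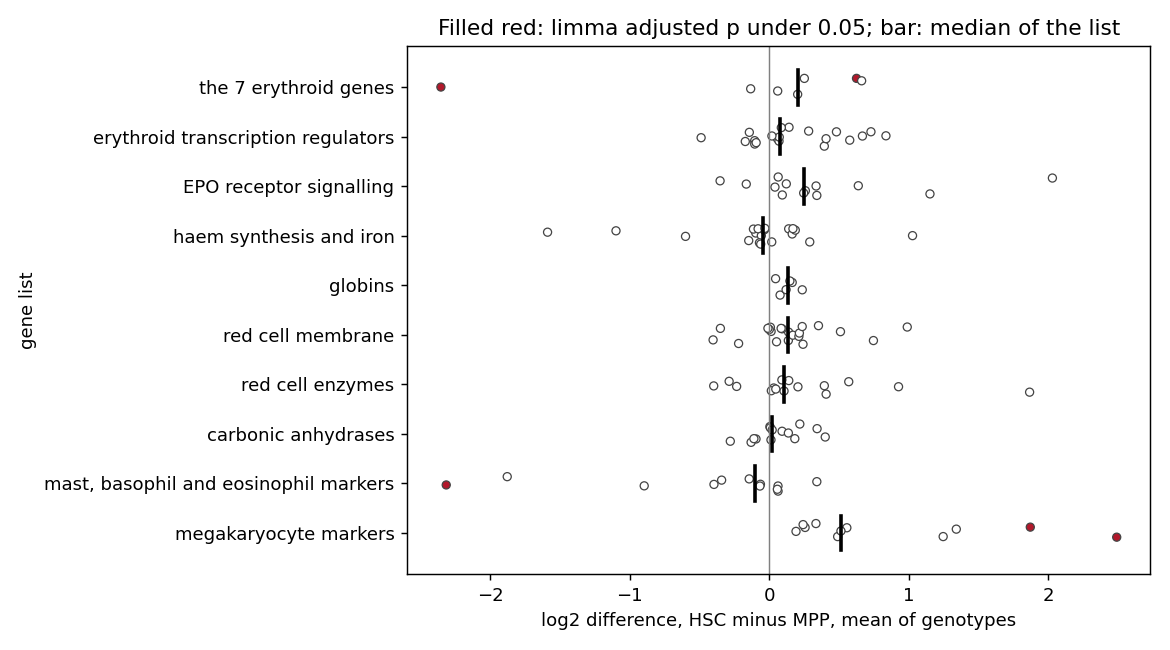
HSC minus MPP differences (log2, mean of genotypes) of the measured genes of each list; each point is 1 gene, bars are list medians, and filled red points passed limma at an adjusted p under 0.05. Among the erythroid lists the filled points are Car1 (-2.35) and Car2 (0.63), and the other filled points are the basophil gene Mcpt8 (-2.31) and the megakaryocyte genes Itgb3 (1.87) and Pf4 (2.49).

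Some markers of other cell types were also called between the populations. Mcpt8, a protease gene of basophils, was lower in HSC, at 5.66 to 6.14 over the 6 arrays, than in MPP, at 6.77 to 9.76 (difference -2.31, SE 0.42, limma adjusted p 0.0388). It was the 1 called gene of 12 mast cell, basophil and eosinophil markers, against 0.61% of all genes. Of the 12, 4 had a higher and 8 a lower mean in HSC. Prss34, named after its values were seen, was among the 4 (difference 0.34, limma adjusted p 0.314). The array means of that list were 5.86 to 5.97 in NFAT5-deficient HSC, against 5.83 to 6.58 in wild-type HSC. In MPP they were 6.16 to 6.78 in the NFAT5-deficient group, against 6.35 to 6.70 in the wild-type group. Between the populations Mcpt8 differed in the same direction as Car1, and its part in the Car1 difference was not tested.

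Megakaryocyte markers had higher means in HSC for 11 of 11 measured genes (median 0.51, beside 0.06 for all genes). Of the 11, 2 were called, against 0.61% of all genes. Pf4, the platelet factor 4 gene, averaged 10.46 in HSC and 7.96 in MPP (limma adjusted p 0.00286), and the integrin gene Itgb3 averaged 8.05 in HSC and 6.18 in MPP (limma adjusted p 0.0272). The array means of that list ran from 7.46 to 7.83 in HSC and from 6.71 to 6.93 in MPP. Like Car2 they were higher in HSC. Their part in the Car2 difference was not tested. Of the 9 mature neutrophil markers 0 were called, with 1 at an unadjusted p under 0.05 (S100a9, difference -1.74, limma adjusted p 0.368). Retnlg, next in order of p, had a difference of -0.72 (limma adjusted p 0.544). Their array means were 5.42 to 5.53 in NFAT5-deficient HSC, against 5.52 to 7.38 in wild-type HSC. In MPP they were 6.01 to 6.62 in the NFAT5-deficient group, against 5.96 to 7.02 in the wild-type group. Of the 11 macrophage, 7 B cell and 6 T cell markers 0 were called in limma, with 3, 1 and 0 at an unadjusted p under 0.05. Among the macrophage markers, Cd163, the haemoglobin scavenger receptor gene, had a difference of -0.91 (limma adjusted p 0.115) and C1qa one of 0.31 (limma adjusted p 0.324). The B cell genes with the smallest p-values were Cd79b (difference -0.48, limma adjusted p 0.395) and Pax5 (difference 0.06, limma adjusted p 0.811). The T cell genes were Cd3g (difference 0.10, limma adjusted p 0.503) and Cd247 (difference 0.24, limma adjusted p 0.630).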

How the data were processed

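Single-colour arrays measured 4 groups of 3 samples. The authors deposited log2 intensities per probe set. Per the submitters' processing notes RMA and limma were used, with no version or role given. The log2 scale was read from the values (2.51 to 13.28). The platform annotation and genome build are not given in the sources used here. Of 22142 probe sets, 19527 had 1 symbol, 0 had several and 2615 had none. All 19527 were found by Entrez identifier in a RefSeq table and 0 symbols changed. For the 33 genes with several probe sets, the one with the highest mean was kept, giving 19494 genes. No scanner files or scan dates were used, so no technical batch was tested, and the number of arrays limits the precision.

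Limma 3.58.1 in R 4.3.3 was fitted to 4 group means over 12 arrays, with an intensity-dependent variance prior. The p-values were adjusted by Benjamini-Hochberg over 19494 genes, with 0.05 as the threshold of a call. Differences are NFAT5-deficient minus wild-type, or HSC minus MPP.

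The members and lists were chosen with earlier results of these data known. All members were named. For each other list, the called genes were named or, with none, the 2 with the smallest p between HSC and MPP. Gata1 and Prss34 were added after their values were seen. For likeness, the 3 genes with the highest Pearson r over the 12 arrays were named for each member above the range of the genes of other tissues on some array. No sequences are printed. Figures were drawn with Python 3.11.15 and matplotlib 3.10.9.

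Alternatives were a filter on dim genes, other variance priors, quantile normalization, median centring, array weights, averaged probe sets, only the groups compared, a threshold of 0.1, the array number as a block, and leaving out each array. A fit without wild-type HSC array 66 and NFAT5-deficient HSC array 70 was added after seeing the data.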

Additional observations from a re-analysis of the deposited data

How the results depend on the processing

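Over 42 differences of the 7 genes and 952 values under other settings, 882 kept their direction and side of the threshold, 29 lost the call, 0 gained one and 41 changed sign, none of a called difference. The cause of these shifts was not tested. Between HSC and MPP in NFAT5-deficient cells the count of called members moved to 0 without the variance trend (Car1 adjusted p 0.0519), with the robust prior (0.0502), with only the groups compared (0.151), with quantile normalization (0.0508), with the replicate block (0.216) and without the 2 HSC arrays that stood apart (0.202). It was 0 to 1 when leaving out single arrays, where Car1 ranged from -3.03 to -2.18. In the mean of genotypes the count moved to 1 with median centring, with the replicate block (Car2 adjusted p 0.168, Car1 0.0495) and without those 2 arrays, and was 1 to 2 when leaving out single arrays (Car2 0.56 to 0.68). Whether HSC and MPP arrays of the same number came from the same mouse is not stated. Their deviations from the group means correlated at -0.01 to 0.06 over the 6 numbers, and the main values carry no block. For the genotype comparisons the block was random.

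The uncalled differences that changed sign were small. With quantile normalization, Slc4a1 gave -0.031 between genotypes in HSC, -0.028 in MPP and -0.0030 in the interaction. The Slc4a1 interaction was -0.0053 with centring and -0.010 with array weights, where that of Car2 was 0.012. Without the 2 HSC arrays that stood apart, Alas2 gave 0.13 between genotypes in HSC and 0.064 between HSC and MPP in NFAT5-deficient cells. Slc4a1 then gave -0.054 between HSC and MPP in wild-type cells, and the Car2 interaction was 0.16. With single arrays left out, the genotype differences in HSC ranged from -0.016 to 0.13 for Car1, -0.052 to 0.18 for Klf1, -0.091 to 0.16 for Slc4a1 and -0.33 to 0.12 for Alas2. Those in MPP ranged from -0.28 to 0.084 for Klf1, -0.18 to 0.020 for Epor and -0.031 to 0.12 for Slc4a1. HSC minus MPP ranged from -0.016 to 0.14 for Slc4a1 and -0.34 to 0.21 for Alas2 in NFAT5-deficient cells, and from -0.056 to 0.31 for Klf1 and -0.054 to 0.19 for Slc4a1 in wild-type cells. The interaction ranged from -0.14 to 0.12 for Car2, -0.12 to 0.12 for Slc4a1 and -0.14 to 0.44 for Alas2.

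Over all genes, the counts called ranged over these settings from 0 to 3 between genotypes in HSC, 0 to 7 in MPP, 3 to 62 between HSC and MPP in NFAT5-deficient cells, 5 to 72 in wild-type cells, 52 to 218 in the mean of genotypes and 0 to 1 in the interaction. A fit of only the groups compared was not run for the last 2, which use all 4 groups. Car1 in HSC and on some MPP arrays, Klf1, Epor and most arrays of Alas2 lay within the range of the genes of other tissues. That limits what these arrays can resolve.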

Other observations

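Across the 12 arrays, the genes whose pattern was most like that of Car1 were Tlr7 (Pearson r 0.933), Tnfrsf26 (0.930) and Dntt (0.927), the last encoding the terminal transferase of early lymphoid cells. For Car2 they were Rab27b (0.911), Cox5b (0.906) and Angpt1 (0.896), the angiopoietin 1 gene. These values describe 12 arrays of 4 groups, so a shared difference between HSC and MPP enters them. For Slc4a1 the closest were Olfr1302 (0.931), Ulk1 (0.888) and Kcnip3 (0.854), for Alas2 Nt5c1a (0.881), Slc30a2 (0.866) and Olfr1290 (0.864), and for Hemgn Olfr1537 (0.880), Fermt1 (0.851) and Apol7e (0.851). The genes named for Slc4a1, Alas2 and Hemgn averaged within the range of the genes of other tissues in both populations, except Kcnip3 in HSC (7.74).

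Between the members, Car1 and Car2 had a Pearson r of -0.87 over the 12 arrays and -0.57 once the group means were taken out. Alas2 and Hemgn had 0.26 over the arrays and 0.69 within groups, and Klf1 and Alas2 had 0.47 and 0.62. The pairs named so far had the largest values within groups. Other pairs ran both ways there, such as Klf1 and Epor at -0.50 and Car2 and Epor at 0.48. With 12 arrays that share their processing, these are descriptions only.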
